A study of Chlorocebus aethiops with 3 samples.

Results

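Messenger RNAs of nucleolar ribosome assembly factors, together with that of MYC, were followed in the heavy polysomes of COS-7 cells after RNA interference against RNA helicase A (RHA). The set was defined by 39 RefSeq ids, among them those of NPM1, NCL, FBL, DKC1, NHP2, GAR1, BOP1, PES1, WDR12 and UBTF and of genes of the NOP, GNL, UTP, RRP, IMP and POLR1 families. Of the 39 ids, 36 were listed on the array, by 54 of its 41000 probes and on 63 spots. The other 3 ids, NM_006170, NM_016391 and NM_014233, were not analysed here. Each id was represented by its probe with the highest mean log2 of red and green signal. A total of 34 ids of the set were tested, out of 14520 tested accessions among 32695 on the array. The scanner tables give ids and no gene symbols, so each member is called by its id and no id is tied to one of the gene names above.

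Ribosomes are assembled in the nucleolus. There RNA polymerase I, with the upstream binding factor UBTF, transcribes the ribosomal RNA precursor. Small nucleolar RNPs modify this precursor, and box C/D particles (with fibrillarin, FBL) methylate it while box H/ACA particles (with dyskerin, DKC1, and the small proteins NHP2 and GAR1) convert uridines to pseudouridine. UTP, IMP and some RRP proteins belong to the machinery that forms the small subunit, and the complex of PES1, BOP1 and WDR12 is needed for the large one. The transcription factor MYC is known to raise the transcription of many of these genes.

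The tested RNA came from COS-7 cells, a fibroblast-like African green monkey kidney line immortalised with SV40 sequences, transfected repeatedly with siRNAs against the coding region of human RHA. The control RNA came from COS-7 cells that had received scrambled siRNA in the same way. The siRNA concentration was 0.5 nM, and heavy polysomes were pooled from sucrose gradients of 15% to 45%. On each of 3 two-colour Agilent arrays, described as biological replicates 1, 2 and 3, knockdown RNA was labelled with Cy5 and control RNA with Cy3. RHA (DHX9) is a DEAH-box helicase known to promote translation of selected mRNAs with structured leaders, and the study examined polysome loading after its down-regulation. Both groups derive from 1 cell line, and its monkey RNA was read with human probes. Cell type markers had been listed by symbol and could not be looked up. A ratio reports how much of an RNA lay in heavy polysomes relative to other RNAs there, and the abundance of the RNA and its ribosome loading cannot be told apart.

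The knockdown channels of replicates 1 and 2 were nearly the same, which bears on every result. Before dye normalization their log2 signals over 18143 tested probes had Pearson's r of 0.997 and a median absolute difference of 0.0839 after the median shift was removed. The knockdown channels of replicates 1 and 3 differed by 0.298 and those of replicates 2 and 3 by 0.278, and the control channels of replicates 1 and 2 by 0.188. On the 171 tested probes printed repeatedly, single spots differed by 0.0793 between the knockdown channels of replicates 1 and 2. Neighbouring spots of a probe on the same array differed by 0.106 on replicate 1 and 0.0958 on replicate 2. The knockdown signals of replicates 1 and 2 thus differed by less than the noise between spots, and can be counted as 1 knockdown sample. For the 34 members the difference between replicates 1 and 2 was 0.0925 in the knockdown channels and 0.185 in the control channels. The calls of members and of their probes are therefore given in both ways, from the 3 arrays as described in the labels and with replicates 1 and 2 averaged into 1 sample, a setting chosen after the data were seen. The p-values from 3 arrays treat replicates 1 and 2 as independent samples. The averaging also merges their control channels, which differed, and so hides the spread between the ratios of replicates 1 and 2. For members with a wide spread there it is not the stricter test.

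The RHA message was checked first. Its brightest probe, A_23_P97749 for NM_001357, had log2 ratios of knockdown over control of -0.041, -0.20 and -0.60 on replicates 1, 2 and 3, and probe A_24_P36847 had -0.12, -0.12 and -0.76. Both lay below 0 on all 3 arrays and neither passed the test over all probes (limma adjusted p = 0.217 and 0.210). Median centring of the arrays in place of loess turned both means above 0, to 0.26 and 0.068. The groups are named after their labels.

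In the test across all accessions, 2 members rose and 4 fell in knockdown polysomes, and 28 did not pass (limma, adjusted p below 0.05). Of all tested accessions 19.9% were called, 10.3% as risen and 9.61% as fallen, so 6 calls among 34 members are near the background. With replicates 1 and 2 averaged, 2 members rose and 1 fell, where 12.0% of all accessions were called, 6.31% as risen and 5.65% as fallen. The median log2 ratio of the tested members was -0.12, beside 0.01 for all tested accessions. Well above background on all arrays in knockdown RNA but not in control RNA were 2917 of all tested accessions and 2 members. With both channels required on all arrays, the medians were -0.17 for the members and -0.039 for all accessions. Of the 34 members in the reported setting, 22 lay below 0 and 12 above. That is 64.7% below 0, beside 48.7% of all tested accessions. This count moved with the centring: 28 members lay above 0 under median centring in place of loess. With each array centred on the median of its tested probes, 16 did. Median centring in place of loess moved the median of all accessions to 0.31 and that of the members to 0.24, so the members stayed below the median of all accessions while their own sign turned. Directions are given against each array's loess curve.

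**Figure D1:**
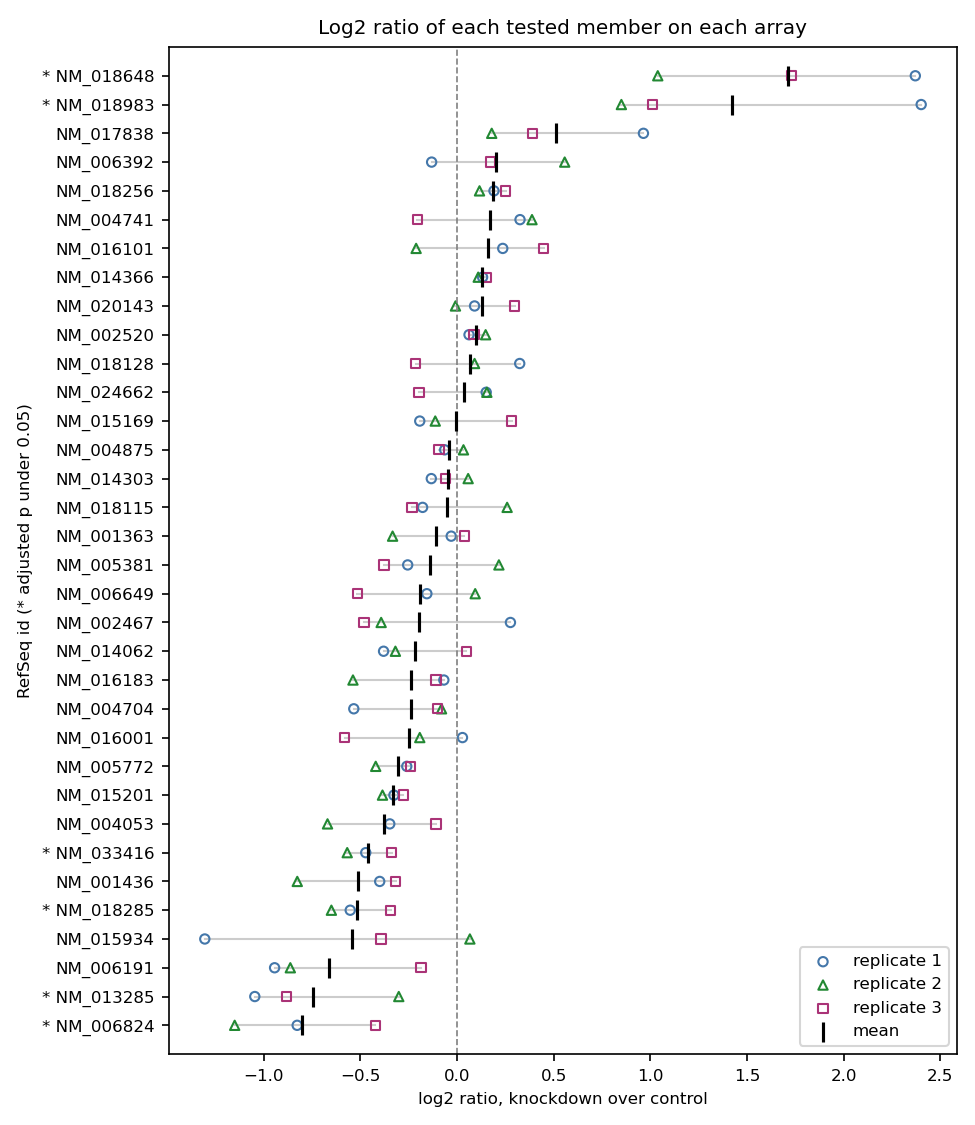
Log2 ratio of knockdown over control on the x axis for the 34 tested members, 1 row for each RefSeq id, with a marker for each of the 3 arrays and a bar for their mean; a star marks adjusted p below 0.05 (limma, 3 arrays). The upper 2 rows, NM_018648 and NM_018983, lie apart from the others with means of 1.71 and 1.42, and all other means lie between -0.80 and 0.51.

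NM_018648 rose most. Its probe A_23_P54477 had normalized intensities of 4005, 3792 and 14010 in knockdown RNA of replicates 1, 2 and 3, against 775, 1846 and 4227 in control RNA. Knockdown was the higher channel on every array, by most on replicate 1 and by least on replicate 2. The log2 ratios were 2.37, 1.04 and 1.73 and averaged 1.71 ± 0.67 (SD, n = 3 arrays) or 3.28-fold, with a 95% interval of 1.07 to 2.36 on the log2 scale. The limma adjusted p was 0.0184 with 3 arrays and 0.0276 with replicates 1 and 2 averaged.

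NM_018983 was the other member that rose. Probe A_23_P58280 had normalized intensities of 785, 752 and 2132 in knockdown RNA, against 149, 417 and 1059 in control RNA. Again the knockdown channel was higher on all arrays, by most on replicate 1. The log2 ratios were 2.40, 0.85 and 1.01 and averaged 1.42 ± 0.85 (SD, n = 3 arrays) or 2.68-fold, with a 95% interval of 0.61 to 2.23. The limma adjusted p was 0.0376 with 3 arrays and 0.0313 with replicates 1 and 2 averaged. Without replicate 1 the mean log2 ratio was 0.93. NM_018648 and NM_018983 were the members changed by at least 2-fold, a size and call that 4.99% of all tested accessions reached in either direction. Both stayed past the threshold without replicate 1 and without replicate 3, and neither did without replicate 2, where their limma adjusted p was 0.110 and 0.123. The fit without replicate 3 rests on replicates 1 and 2 alone, whose knockdown channels can be counted as 1 sample. The fit without replicate 2 called 0 of all accessions, although at an unadjusted limma p under 0.05 there were 1799 positive and 1742 negative ratios.

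NM_006824 had the lowest mean log2 ratio of the 4 members that fell, an order that other background corrections changed. Probe A_23_P103631 had normalized intensities of 662, 637 and 6134 in knockdown RNA, against 1174, 1412 and 8218 in control RNA. The control channel was higher on every array, least so on replicate 3. The log2 ratios were -0.83, -1.15 and -0.42 and averaged -0.80 ± 0.36 (SD, n = 3 arrays), which is 0.575 times the control level with a 95% interval of -1.20 to -0.39 on the log2 scale. The limma adjusted p was 0.0295 with 3 arrays and 0.0690 with replicates 1 and 2 averaged.

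NM_013285 fell both with 3 arrays and with the averaged sample. Probe A_23_P34578 had normalized intensities of 291, 296 and 782 in knockdown RNA, against 600, 364 and 1440 in control RNA. Control exceeded knockdown on all arrays, with the smallest gap on replicate 2. The log2 ratios were -1.05, -0.30 and -0.88 and averaged -0.74 ± 0.39 (SD, n = 3 arrays) or 0.598 times the control level, with a 95% interval of -1.17 to -0.32. The limma adjusted p was 0.0382 with 3 arrays and 0.0355 with replicates 1 and 2 averaged. The averaging hides the gap between -1.05 and -0.30. With 1 replicate left out the mean log2 ratio ran from -0.96 to -0.59, and 0 of these fits called the member.

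NM_018285 and NM_033416 fell with little spread between arrays. NM_018285, on probe A_23_P33809, had normalized intensities of 92.4, 100.2 and 425 in knockdown RNA, against 135, 157 and 539 in control RNA. Its log2 ratios were -0.55, -0.65 and -0.34 and averaged -0.52 ± 0.16 (SD, n = 3 arrays) or 0.700 times the control level. NM_033416, on probe A_23_P302094, had normalized intensities of 85.2, 93.1 and 286 in knockdown RNA, against 118, 138 and 362 in control RNA. Both were higher in control on all arrays, at signals low enough for the added offset of 50 to shrink the ratios. The log2 ratios of NM_033416 were -0.47, -0.57 and -0.34 and averaged -0.46 ± 0.12 (SD, n = 3 arrays) or 0.727 times the control level. The limma adjusted p of NM_018285 was 0.0323 with 3 arrays and 0.0863 with the averaged sample, and that of NM_033416 was 0.0363 and 0.0934. At offset 0, log2 ratios averaged -0.86 for NM_018285 and -0.83 for NM_033416, beside -0.82 for NM_006824 and -0.86 for NM_013285. With Agilent's processed log ratio they were -1.11 and -0.94, beside -0.93 and -0.89. All 4 passed under both, and their sizes had no fixed order.

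Both rises passed under either median centring and the 4 falls under neither. When arrays were centred on their median instead of loess, the mean log2 ratios were -0.029 for NM_006824, -0.13 for NM_013285, -0.11 for NM_018285 and -0.11 for NM_033416, and none of these 4 passed. Centring on the tested probes gave -0.34, -0.44, -0.42 and -0.42, and again none passed (limma adjusted p = 0.137, 0.154, 0.0523 and 0.0508). Leaving out replicate 1 left 0 fallen members, where 1019 of 14517 tested accessions were called as fallen. At an unadjusted limma p under 0.05 that fit had 10 negative ratios among the members and 2260 among all accessions. Leaving out replicate 3, which keeps only the pair with like knockdown channels, left NM_006824 and NM_018285 of the 4 past the threshold. Under the centrings NM_018648 and NM_018983 were higher, at 2.53 and 2.08 with median centring and 2.22 and 1.76 with centring on the tested probes. NM_002520 and NM_017838 passed as risen under both centrings, where 20.4% and 24.0% of all accessions were called in either direction, 2901 and 2555 of them as risen. With replicates 1 and 2 also averaged both passed again (limma adjusted p = 0.0197 and 0.0175 under median centring, 0.0049 and 0.0018 under centring on the tested probes), where 14.3% and 21.2% of all accessions were called, 2036 and 2329 of them as risen.

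**Figure D2:**
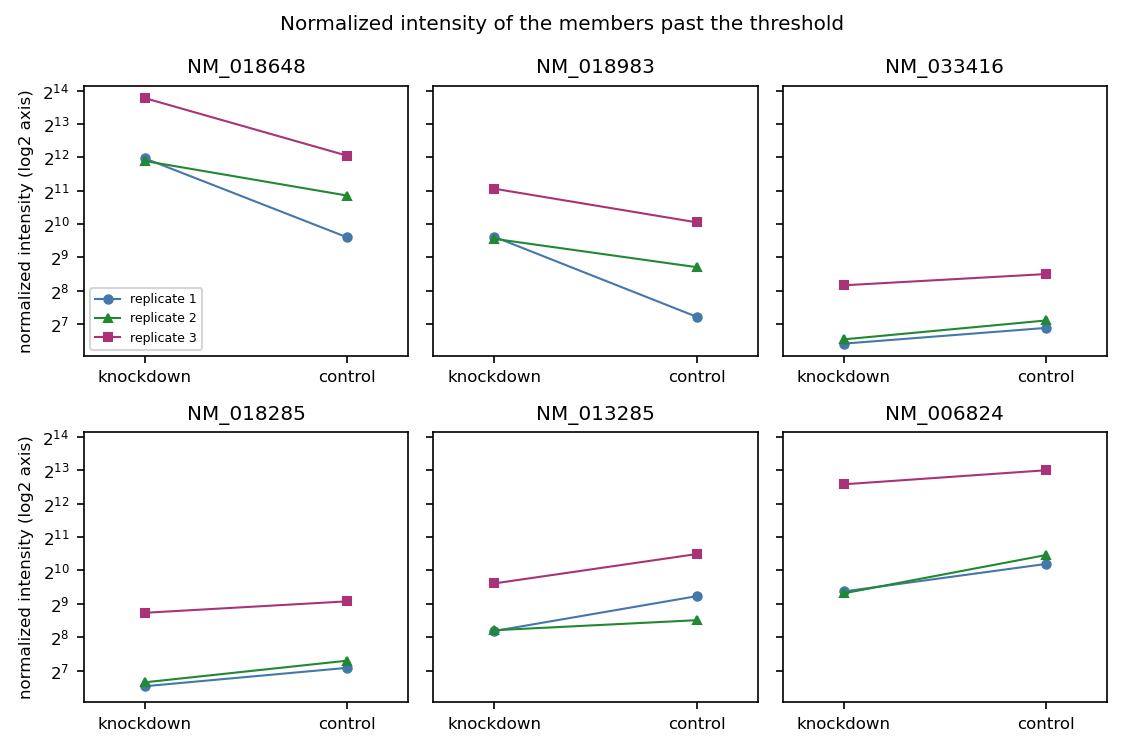
Loess-normalized intensity, offset of 50 included, on a log2 axis for the 6 members past the threshold, with knockdown left and control right and a line for each array. Lines of the upper left 2 panels, NM_018648 and NM_018983, fall to the right and the other 4 rise to the right. Values were not scaled between arrays.

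Among the 28 members that did not pass with 3 arrays, 7 lay below 0 on every array. NM_006191 had log2 ratios of -0.94, -0.86 and -0.19 that averaged -0.66 ± 0.42 (SD, n = 3; limma adjusted p = 0.0551, or 0.151 with replicates 1 and 2 averaged), and NM_001436 had -0.40, -0.83 and -0.32, a mean of -0.51 ± 0.27 (SD, n = 3; limma adjusted p = 0.0541, or 0.0940 with the averaging). NM_015201 varied little, with -0.33, -0.39 and -0.28 (limma adjusted p = 0.0676). The other 4 were NM_004053 with a mean of -0.38, NM_005772 with -0.31, NM_004704 with -0.24 and NM_016183 with -0.24.

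Above 0 on every array without passing were 4 members. NM_017838 had log2 ratios of 0.96, 0.18 and 0.39 that averaged 0.51 ± 0.41 (SD, n = 3; limma adjusted p = 0.0967), highest on replicate 1 like both members that rose. NM_018256 had a mean of 0.19, NM_014366 of 0.13 and NM_002520 of 0.099. NM_014366 had the smallest SD between arrays among the tested members, 0.022. In all, 17 of 34 members had 1 sign on the 3 arrays, beside 58.6% of all tested accessions.

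The remaining 17 tested members had both signs among the arrays. The widest spread was that of NM_015934, with log2 ratios of -1.30, 0.067 and -0.39 that averaged -0.54 ± 0.70 (SD, n = 3), whose 95% interval ran from -1.22 to 0.13. NM_002467 had 0.28, -0.39 and -0.48, a mean of -0.20 ± 0.41 (SD, n = 3), with an interval of -0.64 to 0.24. NM_005381 had -0.26, 0.22 and -0.38, a mean of -0.14 ± 0.31 (SD, n = 3). The intervals of all 17 members with both signs include 0. NM_001363 had a mean of -0.11, NM_006392 of 0.20, NM_004741 of 0.17, NM_014303 of -0.045 and NM_015169 of -0.0076. NM_016101 had a mean of 0.16, NM_020143 of 0.13, NM_006649 of -0.19, NM_016001 of -0.25 and NM_004875 of -0.041. NM_024662 had 0.036, NM_018115 -0.050, NM_018128 0.067 and NM_014062 -0.22. From NM_001363 on, these means ran from -0.25 to 0.20.

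Detection of the set was high on this human array. Of the 36 listed members 34 passed the filter, 94.4%, where 44.4% of all listed accessions did. Both channels were well above background on all arrays for 32 of the tested members. NM_020143 was well above background on 3 of 3 arrays in knockdown RNA and on 1 of 3 in control RNA, and NM_004875 on 3 of 3 and 2 of 3. NM_019014 and NM_015179 were not well above background in either channel of any array and were not tested. The mean log2 signals of the tested members ran from 6.50 to 14.4 with a median of 7.55, beside a median of 7.39 for all tested accessions.

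**Figure D3:**
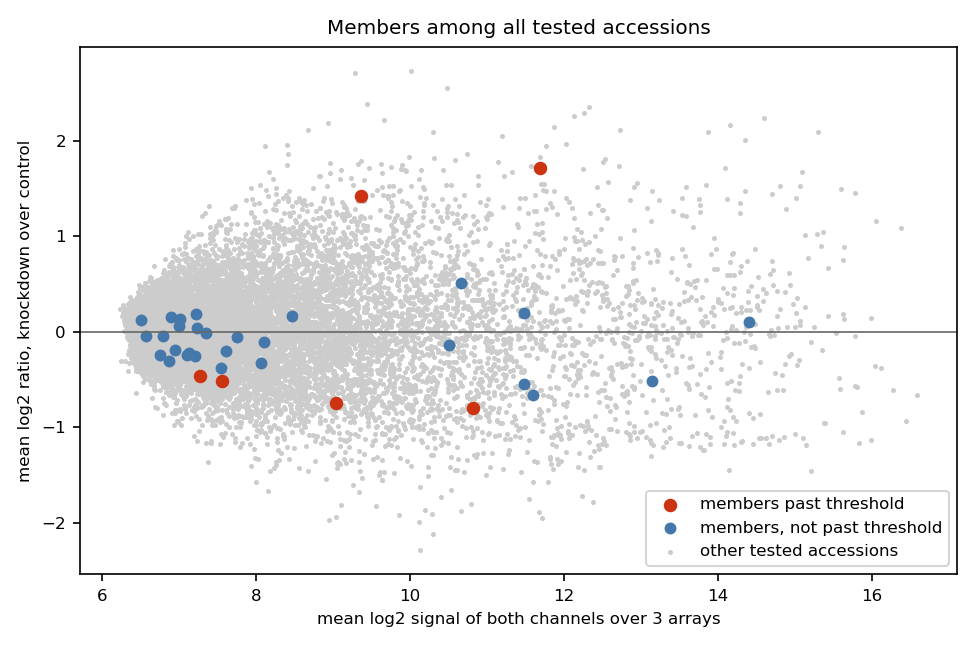
Mean log2 ratio of knockdown over control against mean log2 signal of both channels over 3 arrays, for the tested members (red past the threshold, blue not) and all other tested accessions (grey). The members are spread over signals from 6.50 to 14.4, and the 2 that rose lie at 1.71 and 1.42 among the brighter members.

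The arrays were compared for the members alone. The SD of the log2 ratios of the 34 members was 0.75, 0.47 and 0.47 on replicates 1, 2 and 3, and that of all tested accessions 0.63, 0.49 and 0.44. Across members, replicates 1 and 2 correlated with Pearson's r of 0.69 and Spearman's rho of 0.62, replicates 1 and 3 with 0.81 and 0.55, and replicates 2 and 3 with 0.60 and 0.41. Across all tested accessions, r and rho were 0.75 and 0.69 for replicates 1 and 2, 0.64 and 0.58 for replicates 1 and 3, and 0.70 and 0.66 for replicates 2 and 3. The values across members describe 34 members on arrays with 1 dye orientation, and the knockdown signals of replicates 1 and 2 were nearly the same. The median SD between arrays was 0.27 for the members and 0.20 for all tested accessions. The SD of the members' mean log2 ratios was 0.51, beside 0.47 for all.

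Several members were measured by more than 1 probe, which are not replicates of the condition. For 10 members at least 2 probes were tested, and in 9 of them all mean log2 ratios had 1 sign. All 4 probes of NM_006191 lay below 0 on all 3 arrays, with means of -0.66, -0.67, -0.39 and -0.80. Of these, A_24_P221123 and A_24_P827491 passed the test over all tested probes (limma adjusted p = 0.0281 and 0.0269), while the brightest probe, with which the member was counted, did not (0.0577). With replicates 1 and 2 averaged, A_24_P827491 passed (limma adjusted p = 0.0430) and A_24_P221123 did not (0.0690). Averaging the probes of NM_006191 gave a log2 ratio of -0.63 that passed with 3 arrays (limma adjusted p = 0.0242), and -0.58 that did not with replicates 1 and 2 also averaged (0.0568).

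Probes of other members were less alike. For NM_005381 the brightest probe had a mean of -0.14, while A_24_P754086 fell, with log2 ratios of -0.65, -0.28 and -0.67 that averaged -0.54 ± 0.22 (SD, n = 3; limma adjusted p over all probes = 0.0406, or 0.0593 with replicates 1 and 2 averaged). For NM_001436 the probes had -0.40 and 0.73 on replicate 1, and -0.83 and -0.58 on replicate 2. For NM_002520 the means were 0.099, 0.43 and 0.19, where the brightest probe varied least between arrays. NM_004741 had means of 0.17, 0.17 and 0.17 on its 3 probes, and NM_014062 had means of opposite sign, -0.22 and 0.10. Over all tested probes and with 3 arrays, 9 of the 49 tested member probes were called, 2 risen and 7 fallen. Of all probes 18.4% were called in either direction. With replicates 1 and 2 averaged, only the probes of NM_018648, NM_018983 and NM_013285 and A_24_P827491 of NM_006191 passed. Their limma adjusted p was 0.0293, 0.0331, 0.0377 and 0.0430. The share of all probes was not counted for that setting. Each of the 6 members called above had 1 probe on the array, so none of those calls has a second probe to set beside it.

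**Figure D4:**
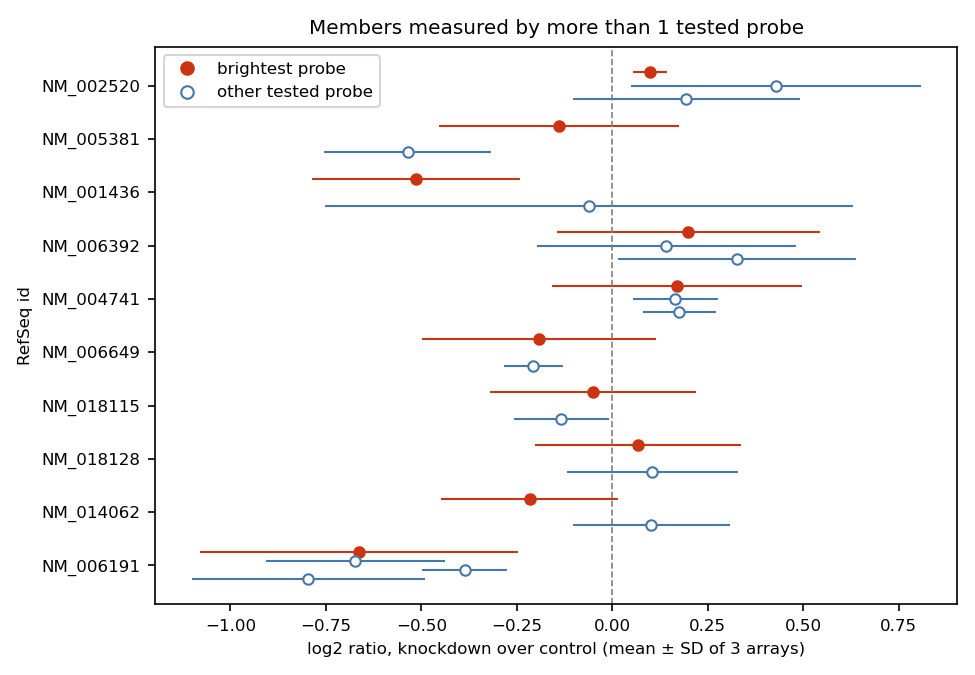
Mean log2 ratio of knockdown over control with SD over 3 arrays, for each tested probe of the 10 members with more than 1 tested probe; the brightest probe is filled. The 4 probes of NM_006191 lie between -0.80 and -0.39, and the 2 of NM_014062 lie on either side of 0.

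**Figure D5:**
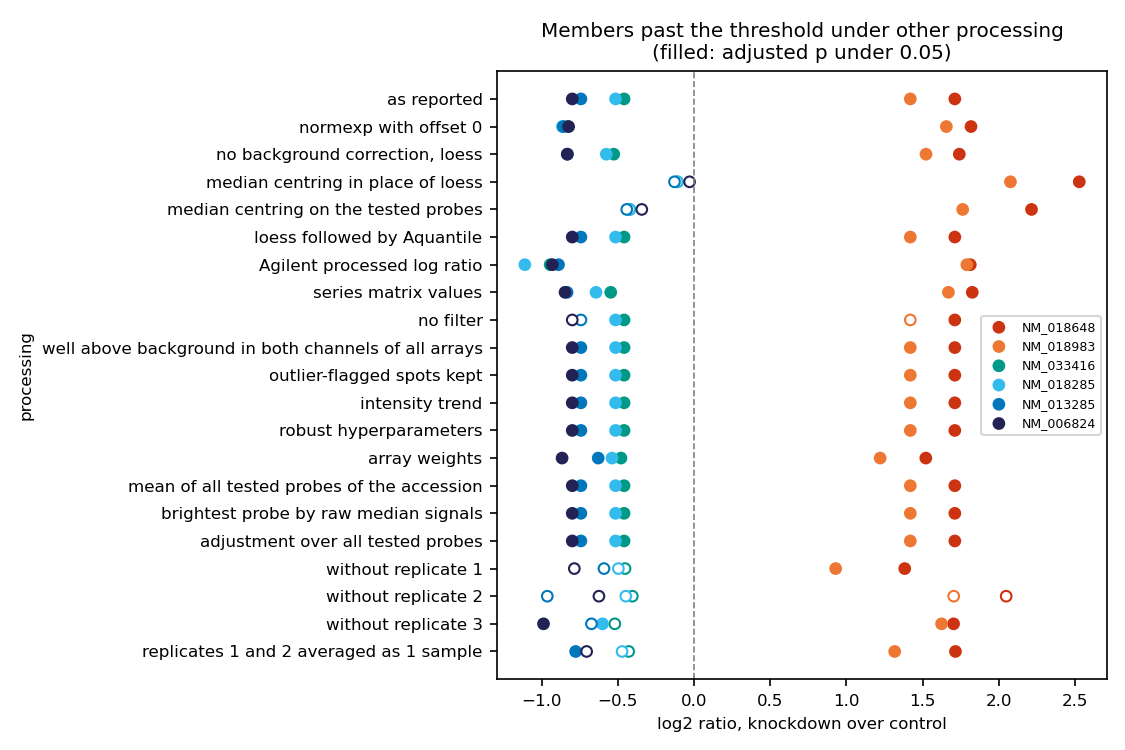
Log2 ratio of the 6 members past the threshold, as reported and under each other processing, filled where adjusted p was below 0.05. NM_018648 and NM_018983 stay at 0.93 or above throughout, while the 4 that fell move toward 0 under both median centrings.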

How the data were processed

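Heavy polysome RNA was measured on 3 two-colour arrays of Agilent design 014850. Feature Extraction 10.9.1.1 gave the deposited spot intensity values, per the file headers (10.9 in the submitters' processing notes, which also name limma), with probes annotated on hg19. The deposited log10 ratios of Cy5 over Cy3 and the authors' deposited log2 values were used only as alternatives. From median spot and background intensities, normexp with an offset of 50 and loess within each array, with control spots at weight 0, were computed in R 4.3.3 with limma 3.58.1. Spots with outlier flags were left out, 142 to 150 of 43376, no probe spot was saturated, and spots of a probe were averaged. Normalized intensities are the channels of the loess-normalized values and are not scaled between arrays, so each log2 ratio compares the channels of 1 probe within 1 array. A probe was tested when well above background on 3 arrays in at least 1 channel.

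Log2 ratios were tested 2-sided against 0 by limma's lmFit and eBayes over all tested probes. Benjamini-Hochberg adjustment ran over 1 probe for each accession, its brightest, and the threshold was 0.05. The number of arrays limits the precision, and dye cannot be told from group because 0 arrays had swapped dyes. The members and lists were chosen with earlier results of these data known. The planned groups by role, the other pathway lists, the marker lists and the planned naming of single genes need symbols and were not computed. Instead every member is named, with values on each array for those past the threshold and for others chosen after their values were seen. The averaging of replicates 1 and 2, alone and together with a centring or with the mean over probes, was also added then.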

Additional observations from a re-analysis of the deposited data

How the results depend on the processing

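The members counted as risen, 2 in the reported setting, were 4 under median centring and under centring on the tested probes, and 1 with no filter on dim probes. Fallen members, 4 as reported, were 0 under both centrings, with 0 and 4 below 0 at an unadjusted p under 0.05 (limma), and 1 with replicates 1 and 2 averaged. They were 6 with the series matrix values, with both channels above background and with array weights, and 5 with offset 0, no background correction, the trend and the mean over probes. In the same order, all fallen accessions numbered 1791, 1455 (of 11444 tested), 1638, 1983, 1751, 2176 and 1316. NM_006191 passed in 6 of 20 alternatives, NM_001436 in 3, NM_005772 in 2 and NM_015201 in 1. Leaving out 1 replicate gave 0 to 2 risen and 0 to 3 fallen members, with the 0 risen without replicate 2, while all risen accessions numbered 0 to 1302 and all fallen ones 0 to 1329. The median log2 ratio of the members, -0.12, was 0.24 under median centring, -0.20 with Agilent's processed log ratio, and -0.0996 to -0.048 with 1 replicate left out. Risen accessions, 1491 as reported, were 2319 with a normexp offset of 0, 2901 under median centring, 2555 under centring on the tested probes, 950 with no filter, 2405 with an intensity trend and 916 with replicates 1 and 2 averaged. Fallen accessions, 1396 as reported, were 54, 926, 910, 2176 and 820 under median centring, centring on the tested probes, no filter, the trend and the averaging. Some settings also had fewer samples or more probes, and the cause of these differences was not tested.

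Signs turned mainly with the centring. Under median centring the mean log2 ratio was 0.26 and 0.068 for RHA, 0.59 for NM_005381, 0.43 for NM_018115, 0.41 for NM_001363, 0.39 for NM_001436, 0.35 for NM_015169, 0.24 for NM_015934, 0.23 for NM_002467, 0.19 for NM_015201, 0.16 for NM_014303, 0.14 for NM_006191, 0.11 for NM_014062, 0.094 for NM_016001, 0.092 for NM_006649, 0.079 for NM_004875, 0.054 for NM_016183 and 0.037 for NM_004053. Under centring on the tested probes it was 0.28 for NM_005381, 0.11 for NM_018115, 0.10 for NM_001363, 0.076 for NM_001436, 0.040 for NM_015169 and -0.11 for NM_020143. Array weights gave 0.022 for NM_018115, and Agilent's processed log ratio 0.046 for NM_004875. With replicates 1 and 2 averaged it was 0.065 for NM_015169, -0.0031 for NM_018128 and -0.022 for NM_024662. None of these passed. With 1 replicate left out, NM_001363 ranged from -0.18 to 0.0040, NM_015169 from -0.15 to 0.085, NM_018115 from -0.21 to 0.041, NM_018128 from -0.061 to 0.21 and NM_024662 from -0.023 to 0.15. The 6 called members kept their sign in all 20 alternatives. NM_018648 stayed past the threshold in 19 of 20, NM_018983 in 18, NM_018285 in 15, and NM_006824, NM_013285 and NM_033416 in 14 each. No paired analysis was possible because the arrays form 1 group of ratios.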
